A study of Mus musculus with 190 samples.

Results

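Blood drawn on day 5 of conventional housing was compared with blood drawn on day 2, the earliest sampling days of the series, when every mouse sampled had a dermatitis score of 0. The libraries were chosen by their titles: the 10 from group 2 on day 5 and the 10 from group 1 on day 2, which make 20 of the 190 libraries. All came from whole blood of wild-type male mice of the inbred strain NC/Nga, in which conventional housing can bring on skin lesions like those of atopic dermatitis, and all were held in that housing. Blood was taken from the tail vein, and total RNA was sequenced from stranded libraries depleted of ribosomal and globin RNA. The labels give no age. Each group was 1 cohort sampled on 1 day, so day and cohort cannot be told apart, and no p-value here measures the spread between cohorts. The labels number the libraries of a group without saying that each came from another mouse, so p-values measure the spread between libraries.

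Whole blood holds red cells, platelets, neutrophils, monocytes, lymphocytes and a few eosinophils and basophils. Platelets have no nucleus and carry RNA passed on by megakaryocytes in the bone marrow, while neutrophils and monocytes are released from the marrow and respond to colony-stimulating factors and tumour necrosis factor. Atopic dermatitis is known for a type 2 immune response with eosinophils. In bulk blood, fewer cells of a type and less RNA per cell cannot be told apart.

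Total counts ran from 21706728 to 37741968 in the day 5 libraries and from 25093137 to 50553138 in the day 2 libraries. Globin genes took 3.03% to 6.49% of counts on day 5 (median 4.49%) and 2.70% to 6.57% on day 2 (median 3.73%). Mitochondrial rRNA genes took 4.16% to 6.44% on day 5 (median 5.28%) and 4.57% to 12.1% on day 2 (median 6.54%). The predicted gene Gm10800, on chr2:98496892-98497646 of GRCm39, stood apart in 4 day 2 libraries: levels in CPM (counts scaled to library size) were 355, 722, 657 and 229 in replicates 3, 4, 7 and 10, against at most 2.73 CPM in any day 5 library and at most 7.36 CPM in the other day 2 libraries. The mitochondrial gene mt-Nd6 was also highest in those 4 libraries, at 3.97 to 7.67 CPM. In the other 6 it reached at most 1.502 CPM, and in the day 5 libraries at most 1.453 CPM. Counts of called genes and of lists are given below with and without these 4 libraries where they differ. CPM are scaled by TMM, a normalization that sets libraries to a common level over most genes.

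On day 5, 476 genes were higher and 472 lower than on day 2, out of 14315 tested with edgeR's quasi-likelihood test at an adjusted p under 0.05. The background share of called genes was therefore 6.62%, with 3.33% higher and 3.3% lower. Most called differences were small: the median log2 fold change was 0.43 among the higher and -0.35 among the lower genes. Groups that did not overlap at all in CPM were rare, at 4 genes or 0.0279% of those tested. Called genes also differed in base composition. The transcripts of the higher genes had a median GC content of 54.9% and those of the lower genes 43.7%, against 48.5% over all genes tested. Over 10 bins of genes ordered by GC content, from the lowest bin to the highest, the median log2 fold change ran from -0.15 to 0.20, and across genes the rank correlation with GC content was 0.46 (14277 genes, which share the same 20 libraries). With an offset that removes this gradient, 195 genes were higher and 252 lower (3.12% of those tested), and 366 of these 447 were also called without it.

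**Figure D1:**
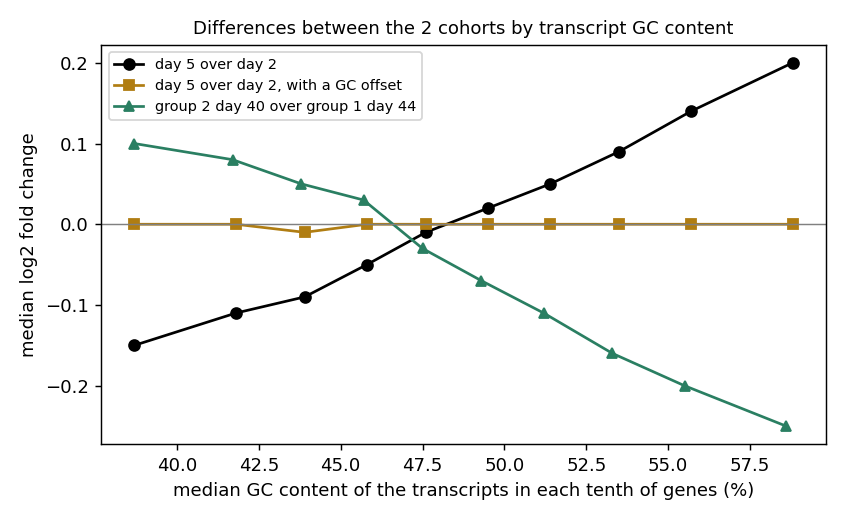
Median log2 fold change (vertical axis) in 10 bins of genes ordered by GC content, against the median GC content of the transcripts in the bin (horizontal axis, %), for day 5 over day 2 without and with a GC offset and for the same cohorts in their later sampling, group 2 on day 40 over group 1 on day 44. The first line climbs from -0.15 to 0.20, the line with the offset stays within 0.01 of 0, and the later sampling falls from 0.10 to -0.25.

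The number of called genes depended on the libraries and on the model. Without the 4 libraries high in Gm10800, 72 genes were higher and 269 lower (2.31% of 14746). With the globin and mitochondrial rRNA shares as covariates 3 genes were called (0.021%), and a fit over all 90 libraries of the first sampling called 17 (0.104% of 16420). Both shares spread more widely over those 90 libraries, as given below with the later days. Leaving out 1 library gave 512, 542, 548, 586 and 468 calls without day 2 replicates 1, 2, 4, 5 and 8, and 1462 without day 2 replicate 6. Leaving out day 5 replicates 5, 8 and 10 gave 627, 458 and 428 calls.

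Platelet genes were lower on day 5. All 16 listed platelet genes had log2 fold changes below 0, with a median of -0.35 against -0.00 over all genes tested, and 6 of the 16 were called lower, where 3.3% of all genes were. The called genes encode the collagen receptor Gp6, the podoplanin receptor Clec1b, the adhesion receptor subunit Gp5, the granule chemokines Ppbp and Pf4, and the granule membrane receptor Treml1. Summed over the 16 genes, the level ran from 2267 to 4197 CPM on day 5 (median 2982) and from 3264 to 5138 CPM on day 2 (median 4055), so the groups overlapped.

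Gp6 (chr7:4366964-4400743 of GRCm39, minus strand) had 59.3, 80.6 and 111.04 CPM at the lowest, median and highest day 5 library, against 85.8, 112.7 and 145.6 CPM on day 2. All 10 day 5 libraries lay below the day 2 median and 7 lay below every day 2 library. The log2 fold change was -0.52 ± 0.11 (SE, n = 10 each; edgeR adjusted p = 0.00889). Clec1b had 121.9, 147.4 and 212.04 CPM on day 5 and 174.04, 200.3 and 279.8 CPM on day 2, a log2 fold change of -0.48 ± 0.11 (edgeR adjusted p = 0.0122). Ppbp, the most abundant of the list in CPM, had 812, 1180 and 1582 CPM on day 5 and 1217, 1609 and 2157 CPM on day 2, a log2 fold change of -0.53 ± 0.13 (edgeR adjusted p = 0.0158). Both groups overlapped in each of these genes, with 7 of 10 day 5 libraries below all day 2 libraries for Clec1b and 5 of 10 for Ppbp. Pf4 fell by 0.38 ± 0.11 on the log2 scale (adjusted p = 0.036), Gp5 by 0.41 ± 0.11 (adjusted p = 0.0314) and Treml1 by 0.46 ± 0.12 (adjusted p = 0.0215). Leaving out each library in turn kept the calls of Gp6, Clec1b, Ppbp and Treml1 in 20 of 20 fits, that of Gp5 in 11 and that of Pf4 in 9. Per transcript length, in the authors' TPM, Pf4 was higher than Ppbp: Pf4 averaged 580.1 ± 148.2 TPM on day 5 and 779.3 ± 174.1 TPM on day 2, and Ppbp 357 ± 90.1 TPM on day 5 and 507 ± 116.6 TPM on day 2 (SD, n = 10 each).

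**Figure D2:**
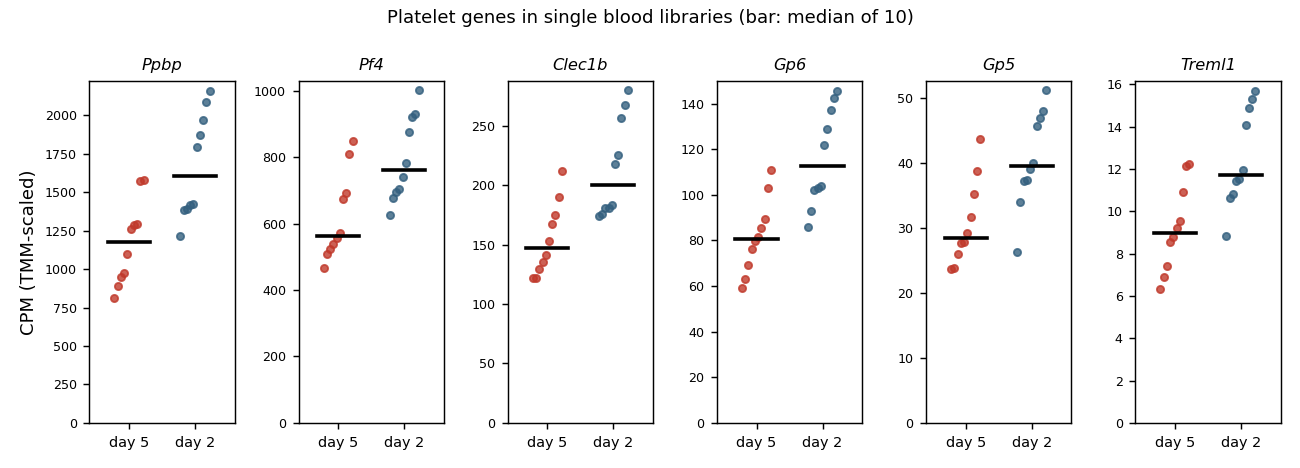
TMM-scaled CPM (vertical axes, starting at 0) of the 6 platelet genes called lower, in single libraries of day 5 (left in each panel) and day 2 (right), with bars at the medians of 10 libraries. Median Gp6 was 80.6 CPM on day 5 and 112.7 CPM on day 2, and the 2 groups overlap in every panel.

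The other platelet genes had values on the same side of 0 without passing the test. Gp1bb, another subunit of the receptor for von Willebrand factor, had a log2 fold change of -0.44 ± 0.14 (adjusted p = 0.0567). Itga2b, a chain of the platelet fibrinogen receptor, had -0.29 ± 0.11 (adjusted p = 0.117), and Vwf, the adhesive protein von Willebrand factor, -0.16 ± 0.14 (adjusted p = 0.527). With the GC offset 9 of the 16 were called lower, where 1.76% of all genes were (median -0.41), among them Gp1bb (adjusted p = 0.0139) and Itga2b (adjusted p = 0.0145), while Clec1b was not (adjusted p = 0.104). The listed genes had a median GC content of 54.6%, above that of all genes tested. Without the 4 libraries high in Gm10800, 7 were called lower, where 1.82% of all genes were (median -0.43). With the globin and mitochondrial rRNA shares as covariates none of the 16 was called, and all stayed below 0 (median -0.30). The fit over 90 libraries called none either, with a median of -0.34.

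Further genes abundant in platelets were also lower. They were chosen after their values were seen, so their direction says nothing more of the list. Mmrn1, a platelet granule protein, had a median of 156.9 CPM on day 5 and 214 CPM on day 2 (log2 fold change -0.52 ± 0.11, edgeR adjusted p = 0.00799). Rgs18, a regulator of G protein signalling in platelets, had medians of 733 and 1059 CPM on day 5 and on day 2, a log2 fold change of -0.60 ± 0.14 (edgeR adjusted p = 0.0121). Cavin2, a coat protein of caveolae, had a log2 fold change of -0.57 ± 0.11 (edgeR adjusted p = 0.00691), and Arhgap6, which encodes a GTPase-activating protein, one of -0.57 ± 0.09 (edgeR adjusted p = 0.0023).

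The promoters of the 6 called platelet genes are shown because these genes were lower together, as 250 bases upstream of the RefSeq start in build GRCm38.p6, another build than that of the counts. Capitals mark matches to GATA motifs (AGATAA or TGATAA) or ETS motifs (AGGAAG or CGGAAG) on either strand. These are motif families of factors known for megakaryocyte genes. Gp6 lies at chr7:4397745-4397994 (minus strand), Clec1b at chr6:129397047-129397296 (plus), Gp5 at chr16:30310782-30311031 (minus), Pf4 at chr5:90772185-90772434 (plus), Ppbp at chr5:90768268-90768517 (plus) and Treml1 at chr17:48359666-48359915 (plus). The windows of Ppbp and Treml1 hold no match.
Gp6: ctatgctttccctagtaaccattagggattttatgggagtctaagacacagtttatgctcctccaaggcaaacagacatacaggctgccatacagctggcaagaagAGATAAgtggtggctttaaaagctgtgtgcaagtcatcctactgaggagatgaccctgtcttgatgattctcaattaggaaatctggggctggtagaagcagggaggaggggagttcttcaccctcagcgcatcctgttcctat
Clec1b: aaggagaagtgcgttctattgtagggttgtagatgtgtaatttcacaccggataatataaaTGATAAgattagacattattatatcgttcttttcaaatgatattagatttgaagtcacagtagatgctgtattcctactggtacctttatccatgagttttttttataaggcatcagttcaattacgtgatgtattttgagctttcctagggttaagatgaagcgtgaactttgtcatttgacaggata
Gp5: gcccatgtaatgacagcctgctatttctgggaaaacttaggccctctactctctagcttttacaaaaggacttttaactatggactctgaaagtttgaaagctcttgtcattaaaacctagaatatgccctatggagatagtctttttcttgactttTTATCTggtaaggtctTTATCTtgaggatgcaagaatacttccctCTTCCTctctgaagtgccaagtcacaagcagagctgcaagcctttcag
Pf4: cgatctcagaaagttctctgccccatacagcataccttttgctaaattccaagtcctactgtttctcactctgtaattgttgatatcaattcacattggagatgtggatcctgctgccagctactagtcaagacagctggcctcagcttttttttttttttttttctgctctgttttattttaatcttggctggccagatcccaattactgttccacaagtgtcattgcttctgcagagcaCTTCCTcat
Ppbp: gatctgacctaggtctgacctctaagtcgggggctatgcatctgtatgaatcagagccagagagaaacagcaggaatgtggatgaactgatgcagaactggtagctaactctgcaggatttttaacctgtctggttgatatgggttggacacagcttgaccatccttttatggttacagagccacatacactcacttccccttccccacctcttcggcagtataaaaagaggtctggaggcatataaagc
Treml1: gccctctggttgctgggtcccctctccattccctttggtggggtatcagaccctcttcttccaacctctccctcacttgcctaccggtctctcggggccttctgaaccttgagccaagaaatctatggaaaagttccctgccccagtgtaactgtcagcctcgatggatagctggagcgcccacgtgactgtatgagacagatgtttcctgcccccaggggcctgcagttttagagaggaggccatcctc
A GATA match was found in 4 of the 13 platelet genes with a promoter in the table (30.8%) and in 17% of 27025 promoters of the same length, 1 a gene. An ETS match was found in 8 of the 13 (61.5%) and in 39% of all. The 2 motifs do not overlap in these 6 sequences, and a match describes letters, not binding.

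Tnfrsf1a, a gene of myeloid and other cells, was higher on day 5. It encodes a receptor for tumour necrosis factor (chr6:125326325-125339447 of GRCm39, plus strand) and had 3.82, 5.53 and 7.07 CPM at the lowest, median and highest day 5 library, against 1.72, 3.05 and 3.63 CPM on day 2. The groups did not overlap in CPM, and the log2 fold change was 0.87 ± 0.12 (SE, n = 10 each, edgeR adjusted p = 0.00157). It was called in 20 of 20 fits that left out 1 library, with the GC offset (0.73, adjusted p = 0.00315) and with the 2 shares as covariates (0.82, adjusted p = 0.033), but not in the fit over 90 libraries (0.88, adjusted p = 0.0598). The 3 other genes whose groups did not overlap in CPM were chosen after their values were seen. Myadm, a membrane protein of myeloid cells, was higher (0.61 ± 0.09, adjusted p = 0.00199). Tapt1, a transmembrane protein, was lower (-0.34 ± 0.05, adjusted p = 0.0023), as was the lactonase Pon3 (-0.51 ± 0.11, adjusted p = 0.00899). In the authors' TPM the groups overlapped for all 4 genes. For Tnfrsf1a the lowest day 5 library had 0.498 TPM and the highest day 2 library 0.765 TPM.

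Of 24 genes listed for mature neutrophils, 2 were called higher and none lower, where 3.33% of all genes were called higher, and the list had a median log2 fold change of 0.12 against -0.00 over all genes tested. So small a count describes these 2 genes and not the list. Csf3r, the receptor for granulocyte colony-stimulating factor, had 43.9, 72.8 and 104.02 CPM on day 5 and 26.6, 45.2 and 56.01 CPM on day 2. Its day 5 libraries lay above all day 2 libraries in 7 of 10 cases, and the log2 fold change was 0.77 ± 0.15 (edgeR adjusted p = 0.00855). Steap4, a metalloreductase, had 1.76, 3.87 and 9.04 CPM on day 5 and 0.98, 2.25 and 2.87 CPM on day 2 (log2 fold change 1.08 ± 0.25, edgeR adjusted p = 0.0176). Here 8 of the 10 day 5 libraries exceeded every day 2 library. The cytokine Il1b (0.57 ± 0.22, adjusted p = 0.132) and the secreted Wfdc17 (0.88 ± 0.33, adjusted p = 0.121) did not pass. The alarmin genes S100a8 (-0.31 ± 0.35, adjusted p = 0.643) and S100a9 (0.07 ± 0.29, adjusted p = 0.916) did not pass either, and day 2 replicate 7 was far above the others in both, at 504 and 600.5 CPM. Without that library S100a8 had a log2 fold change of 0.11. Genes of the primary granules, made by immature neutrophils, were too low to test: the 5 listed summed to at most 0.374 CPM on day 5 and at most 0.459 CPM on day 2, and Elane was at 0 in all 20 libraries.

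Few monocyte and dendritic cell genes were called, at 1 or 2 in each list of 9 to 14, where 3.33% of all genes were called higher and 3.3% lower. The values describe the genes named and not the lists. Csf1r, the receptor for macrophage colony-stimulating factor, had 35.1, 50.96 and 65.6 CPM on day 5 and 26.7, 31.7 and 42.8 CPM on day 2, a log2 fold change of 0.53 ± 0.10 (edgeR adjusted p = 0.00614). All 10 day 5 libraries exceeded the day 2 median. F13a1, the A chain of coagulation factor XIII and also a platelet transcript, went the other way (-0.32 ± 0.09, edgeR adjusted p = 0.0327), so that 1 of 9 classical monocyte genes was higher and 1 lower. Among 10 nonclassical monocyte genes, the peptidase Ace (0.40 ± 0.08, adjusted p = 0.00875) and the sialoprotein Spn (0.29 ± 0.07, adjusted p = 0.018) were higher and none was lower. Itgax, an integrin chain of dendritic cells, was the only one of 10 dendritic cell genes called (0.37 ± 0.11, adjusted p = 0.035). Itgam, the integrin chain of complement receptors on neutrophils and monocytes, was higher (0.46 ± 0.12, adjusted p = 0.0291), and 1 of 14 complement and Fc receptor genes was called. Without the 4 libraries high in Gm10800, Csf1r and Csf3r passed (adjusted p = 0.0303 and 0.0438), while Steap4 (0.0715), Ace (0.0826), Spn (0.174), Itgax (0.149) and Itgam (0.0957) did not.

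Other called genes, of various functions, were also higher on day 5. Slc29a3, a lysosomal nucleoside transporter, had 2.05, 2.76 and 3.21 CPM on day 5 and 0.82, 1.41 and 2.07 CPM on day 2, with 9 of 10 day 5 libraries above all of day 2 (0.84 ± 0.15, edgeR adjusted p = 0.00614). Socs3, a feedback inhibitor of cytokine receptors, had 4.13, 5.36 and 10.3 CPM on day 5 and 2.62, 3.72 and 5.26 CPM on day 2 (0.72 ± 0.16, edgeR adjusted p = 0.0102). The secreted glycoprotein Lrg1 was higher by 1.16 ± 0.33 (adjusted p = 0.0429) and was called in 7 of 20 fits that left out 1 library. Sirpa, an inhibitory receptor of myeloid cells, and Lrp1, an endocytic receptor, were chosen after their values were seen. Sirpa was higher by 0.64 ± 0.10 (adjusted p = 0.00347) and Lrp1 by 0.71 ± 0.12 (adjusted p = 0.00614).

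**Figure D3:**
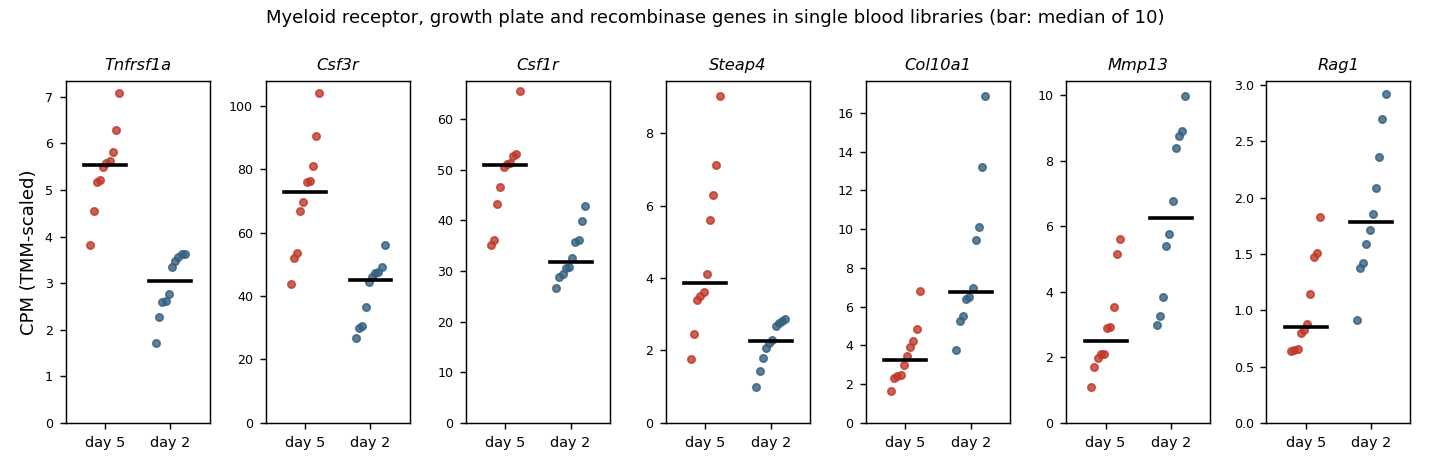
TMM-scaled CPM (vertical axes, starting at 0) of myeloid receptor genes and Steap4, of the cartilage and bone genes Col10a1 and Mmp13 and of the recombinase gene Rag1, in single libraries of day 5 (left) and day 2 (right), with bars at the medians of 10 libraries. Only the Tnfrsf1a panel shows groups that do not overlap, at 3.82 to 7.07 CPM on day 5 and 1.72 to 3.63 CPM on day 2.

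Col10a1, Mmp13, Smpd3 and Ccn4 were among the 15 largest falls on day 5, and were named for that. They are known from cartilage and bone rather than from blood cells, and no list of growth plate genes was counted. Col10a1, the collagen of hypertrophic cartilage cells (chr10:34265977-34273081 of GRCm39, plus strand), had 1.64, 3.22 and 6.79 CPM on day 5 and 3.78, 6.75 and 16.9 CPM on day 2. Day 5 libraries lay below all day 2 libraries in 6 of 10 cases, and the log2 fold change was -1.28 ± 0.28 (edgeR adjusted p = 0.0127). Mmp13, a collagenase of the same zone and of bone cells, had 1.09, 2.51 and 5.61 CPM on day 5 and 2.99, 6.26 and 9.98 CPM on day 2 (-1.16 ± 0.29, edgeR adjusted p = 0.0247). All 10 day 5 libraries lay below the day 2 median of Mmp13. Smpd3, a sphingomyelinase needed for cartilage and bone mineral, fell by 1.06 ± 0.22 (adjusted p = 0.00869), and the matricellular Ccn4 fell by 1.17 ± 0.34 (adjusted p = 0.0406). Without the 4 libraries high in Gm10800 none of these 4 passed (adjusted p = 0.0818 for Col10a1, 0.133 for Mmp13, 0.108 for Smpd3 and 0.309 for Ccn4), and their log2 fold changes were -1.14, -0.98, -0.75 and -0.75.

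The matrix lists gave few calls. Of 7 cartilage matrix genes tested, Col10a1 alone was called, where 3.3% of all genes were called lower (list median -0.32). Of 20 collagen and bone matrix genes, 18 were below 0 and none was called, with a median of -0.56. The bone sialoprotein gene Ibsp came closest (-1.20 ± 0.37, adjusted p = 0.0587), and Col1a1, the main collagen chain of bone and skin, had 4.75, 25.3 and 57.6 CPM on day 5 and 12.6, 39.1 and 76.4 CPM on day 2 (-0.67 ± 0.41, adjusted p = 0.339). Summed, the 20 genes ran from 54.6 to 468 CPM on day 5 and from 110 to 653 CPM on day 2, so the groups overlapped widely. Tail vein blood was thus found to hold matrix transcripts on both days, and whether tissue taken up with the blood moved with these genes was not tested. Keratin genes of skin did not fall: 6 of 6 tested were above 0, with none called (median 0.70), and Krt5 of the basal epidermis had medians of 1.11 CPM on day 5 and 0.35 CPM on day 2 (1.34 ± 0.50, adjusted p = 0.114). Of muscle genes, 1 of 6 was called, where 3.33% of all genes were called higher. Tnni2, a troponin of fast muscle, was higher by 0.80 ± 0.20 (adjusted p = 0.0179). This call describes Tnni2 and not the list.

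Lymphocyte genes showed few calls, where 3.33% of all genes were called higher and 3.3% lower. Rag1, which starts antigen receptor gene recombination in immature lymphocytes, had 0.63, 0.85 and 1.83 CPM on day 5 and 0.91, 1.79 and 2.92 CPM on day 2 (-0.89 ± 0.21, edgeR adjusted p = 0.0153), with 9 of 10 day 5 libraries below the day 2 median. Of 17 B cell genes 2 were lower: the surface gene Ms4a1 had 139.96, 171.8 and 192.5 CPM on day 5 and 155.7, 223.5 and 303.2 CPM on day 2 (-0.42 ± 0.09, edgeR adjusted p = 0.0117), and the inhibitory receptor Cd72 fell by 0.33 ± 0.10 (adjusted p = 0.0391). The list median was -0.03. None of 18 T cell genes was called, with Cd4 at 0.21 ± 0.08 (adjusted p = 0.102), and none of 15 cytotoxic and NK cell genes, with the protease Gzma at -0.27 ± 0.09 (adjusted p = 0.0702). Cd74, the invariant chain of antigen presentation, was higher by 0.49 ± 0.13 (adjusted p = 0.0285), the only one of 10 MHC class II genes called. Without the 4 libraries high in Gm10800, Rag1 (adjusted p = 0.108), Ms4a1 (0.133), Cd72 (0.266) and Cd74 (0.0701) did not pass.

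Eosinophil genes did not pass the test: none of 7 tested was called, where 3.33% of all genes were called higher and 3.3% lower. No call among so few genes says little of the list. The summed level of all listed genes, tested or not, ran from 42.1 to 70.2 CPM on day 5 and from 39.5 to 72.4 CPM on day 2. The levels of Ccr3, Siglecf, Epx and Prg2, given next, were small beside this sum. It mostly reflects other listed genes. Ccr3, the eotaxin receptor of eosinophils, had 1.14, 1.94 and 2.73 CPM on day 5 and 0.93, 1.90 and 3.37 CPM on day 2 (-0.11 ± 0.20, adjusted p = 0.794). The eosinophil lectin Siglecf had 0.31, 0.58 and 1.26 CPM on day 5 and 0.08, 0.34 and 0.65 CPM on day 2 (0.88 ± 0.31, adjusted p = 0.0835). The granule genes Epx and Prg2 were at or near 0, with at most 0.154 CPM on day 5 and at most 0.136 CPM on day 2. Of 10 basophil and mast cell genes, the protease Cpa3 was lower (-0.50 ± 0.15, adjusted p = 0.0385), where 3.3% of all genes were. This call describes Cpa3 and not the list.

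**Figure D4:**
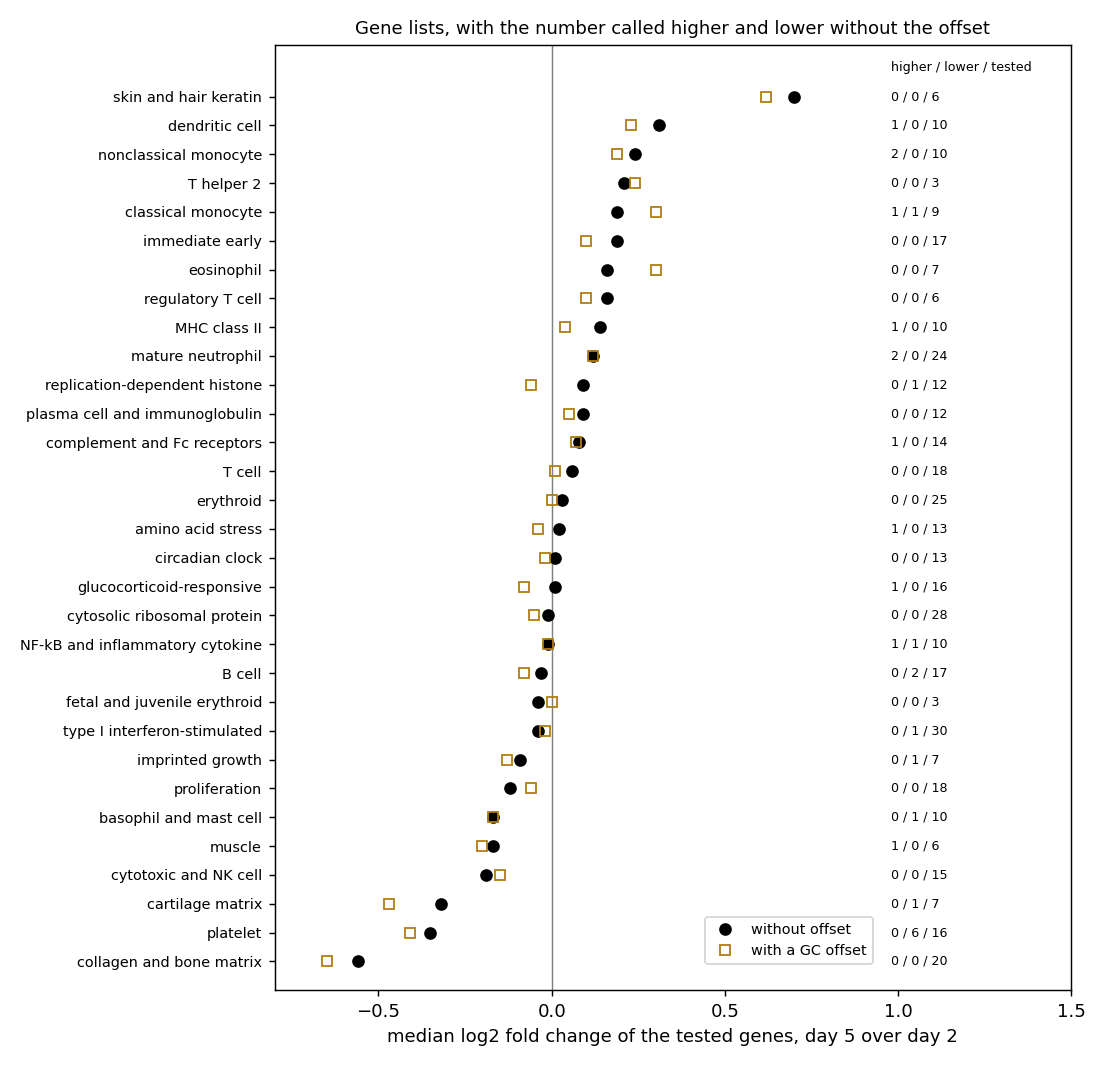
Median log2 fold change of the tested genes of each list, day 5 over day 2 (horizontal axis), without (filled circles) and with (open squares) a GC offset; numbers at the right count genes called higher, called lower and tested. The platelet list, at -0.35 with 6 of 16 lower, holds the most calls, while collagen and bone matrix (-0.56) and skin keratins (0.70) lie farthest from 0 with none.

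Single members were called in a direction in several other lists of 7 to 30 genes, where 3.33% of all genes were called higher and 3.3% lower, so that 1 call in a direction says nothing of its list. The interferon-induced Ifit1 was lower (-0.44 ± 0.12, adjusted p = 0.0344), 1 of 30 interferon-stimulated genes, while Oasl2 of the same list had 0.47 ± 0.17 (adjusted p = 0.107). The cytokine gene Il6 was lower at under 2 CPM in every library (-0.99 ± 0.31, adjusted p = 0.0497). The growth-related imprinted gene Mest was lower (-0.45 ± 0.12, adjusted p = 0.034), 1 of 7. The stress-induced Sesn2 was higher (0.55 ± 0.15, adjusted p = 0.0344), 1 of 13 amino acid stress genes, and Zbtb16, a transcription factor induced by glucocorticoids, was higher (0.56 ± 0.17, adjusted p = 0.0444), 1 of 16, with Fkbp5 of that list at -0.12 ± 0.08 (adjusted p = 0.398). The histone gene H2bc4 was lower (-0.36 ± 0.10, adjusted p = 0.03), 1 of 12. No gene was called among 28 ribosomal protein genes, 18 proliferation genes, 17 immediate early genes, 13 clock genes such as Per2 (0.25 ± 0.17, adjusted p = 0.394), 25 erythroid genes, 12 plasma cell genes, 6 regulatory T cell genes, 3 T helper 2 genes or 3 fetal erythroid genes. The globin gene Hba-a2 had 459, 865 and 2526 CPM on day 5 and 254, 571 and 1047 CPM on day 2 (1.06 ± 0.35, adjusted p = 0.0759). Near-identical globin copies may share reads.

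Some of the largest changes fell in no list. Cyp2b10, a cytochrome P450 known for xenobiotic metabolism in liver, had 2.28, 3.63 and 5.21 CPM on day 5 and 4.203, 6.73 and 9.31 CPM on day 2 (-0.85 ± 0.14, edgeR adjusted p = 0.00295), with 7 of 10 day 5 libraries below all of day 2. Serpinb2, an inhibitor of plasminogen activators, had 2.88, 4.81 and 7.59 CPM on day 5 and 5.14, 8.13 and 9.94 CPM on day 2 (-0.72 ± 0.15, edgeR adjusted p = 0.00855). Both remained called in 20 of 20 fits that left out 1 library, with the GC offset, without the 4 libraries high in Gm10800 and in the fit over 90 libraries (adjusted p = 0.0265 and 0.0496). With the globin and mitochondrial rRNA shares as covariates, only 1 gene in all was called lower. Cyp2b10 and Serpinb2 therefore could not both keep the call in that fit. The cell cycle inhibitor Cdkn2b fell by 0.79 ± 0.18 (adjusted p = 0.0119), the PDZ domain gene Gipc2 by 0.92 ± 0.20 (adjusted p = 0.0103), the C-type lectin Clec4g by 0.84 ± 0.24 (adjusted p = 0.0336) and the cadherin Fat3 by 1.36 ± 0.35 (adjusted p = 0.0256). Tagln, an actin-binding protein of smooth muscle, was higher by 1.14 ± 0.31 (adjusted p = 0.0269). Zfp385a, a zinc finger gene chosen after its values were seen, was higher by 1.11 ± 0.24 (adjusted p = 0.0103). The mitochondrial gene mt-Nd6 fell by 1.53 ± 0.40 (adjusted p = 0.0288), but had -0.26 (adjusted p = 0.524) without the 4 libraries in which Gm10800 was high.

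Across the genes named above, several calls were lost with the GC offset or without the 4 libraries high in Gm10800, and some other fits removed more. Leaving out 4 libraries also made the day 2 group smaller, and no other 4 were left out for comparison. Whether calls were lost to the smaller group or to these libraries was thus not tested. Of the named genes, 52 lost the call with both shares as covariates and 49 in the fit over 90 libraries. The mitochondrial rRNA share alone removed 36 calls and the globin share alone 34. A gene left off the lists below may thus have lost its call in another fit. With the offset, 20 of the called genes no longer passed: Clec1b, Rgs18, Spn, Itgax, F13a1, Cd74, Ms4a1, Lrg1, Socs3, Ccn4, Tagln, Tnni2, Cpa3, Ifit1, Il6, Mest, Sesn2, Zbtb16, H2bc4 and mt-Nd6 (adjusted p from 0.0511 for Tagln to 0.23 for Sesn2). Without the 4 libraries, and beside those already given, Pon3, Lrg1, Socs3, Tagln, Tnni2, Fat3, Clec4g, Cpa3, Ifit1, Il6, Sesn2 and Zbtb16 no longer passed (adjusted p from 0.0524 for Pon3 to 0.214 for Fat3). Each of these genes kept its direction in both fits.

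Levels on the later days put day 2 and day 5 in sequence, with 1 cohort a day and rising dermatitis scores later on, so that these values are a description. Median Csf3r was 45.2, 72.8, 65.7, 101.9, 86.5, 136.3, 194.7, 142.3 and 170.9 CPM on days 2, 5, 9, 12, 16, 19, 23, 26 and 30. Median Steap4 was 2.25, 3.87, 5.63, 24.7 and 13.9 CPM on days 2 to 16 and 63.7 CPM on day 30. Both had their lowest median on day 2. Median Col10a1 was 6.75, 3.22, 1.85, 1.77 and 0.93 CPM on days 2, 5, 9, 12 and 16, and every library of day 30 was at or under 0.104 CPM. Median Rag1 was 1.79, 0.85, 0.78 and 0.51 CPM on days 2, 5, 9 and 12. Median Ccr3 was 1.90, 1.94 and 11.7 CPM on days 2, 5 and 9, and the lowest day 9 library, at 6.78 CPM, was above every library of days 2 and 5. The platelet gene Gp6 followed no such order and had its lowest median of the 9 days on day 5. Its median was 112.7, 80.6, 113.5 and 121.07 CPM on days 2, 5, 9 and 12. Median Tnfrsf1a was 3.05, 5.53, 3.19 and 5.12 CPM on those days, and the day 9 median was close to that of day 2.

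**Figure D5:**
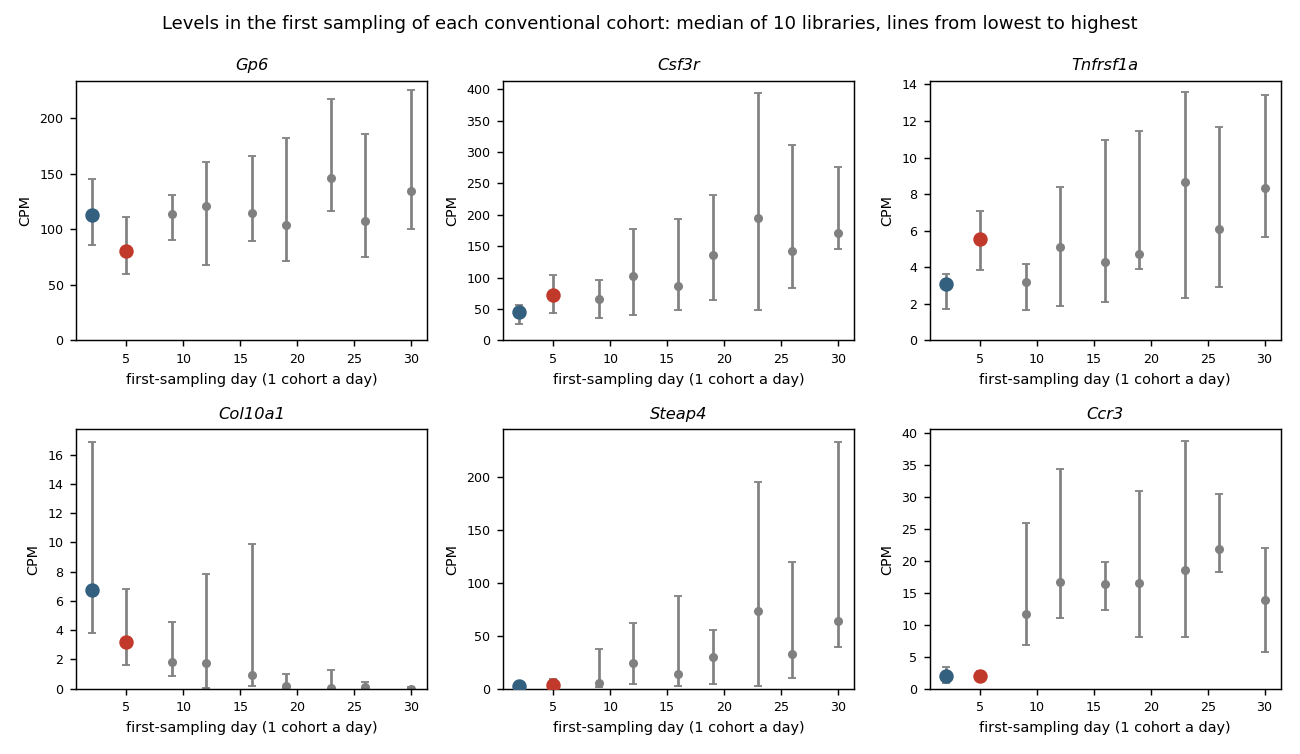
CPM (vertical axes, starting at 0) of 6 genes on the 9 days of the first sampling in conventional housing (horizontal axis, 1 cohort a day); points are medians of 10 libraries and lines run from the lowest to the highest library, with day 2 in blue and day 5 in red. Median Ccr3 stands at 1.90 and 1.94 CPM on days 2 and 5 and at 11.7 CPM on day 9, while Gp6 is lowest on day 5.

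The same cohorts were sampled again, group 2 on day 40 and group 1 on day 44. This gives a view of the cohort difference at other days. Most of these mice had dermatitis by then, with scores from 0.5 to 3 in group 2 and from 0 to 3 in group 1. Libraries also spread more. The mean log2 level of the mature neutrophil list had an SD of 1.13 in group 2 and 1.11 in group 1. On the early days these SDs were 0.369 and 0.474. No gene was called between the late groups by edgeR at an adjusted p under 0.05 (0% of 13222). With this spread and mixed severity, 0 calls do not show that the cohorts were alike. The unadjusted p of edgeR lay below 0.05 for 1130 genes, and DESeq2 called 17. Libraries of both samplings were taken as independent in a test of the difference between the cohort differences, early minus late. This difference passed edgeR's test for 740 of 14979 genes (4.94%), with 459 positive and 281 negative. With the GC offset 68 passed (0.454%); the GC gradient ran the opposite way in the later sampling, with a rank correlation of -0.43 across genes. Tnfrsf1a had 0.87 early and -0.22 late, a difference of 1.11 ± 0.28 (edgeR adjusted p = 0.0195, and 0.149 with the GC offset). Gp6 had -0.52 early and 0.23 late, a difference of -0.75 ± 0.21 (edgeR adjusted p = 0.0325, and 0.213 with the GC offset). Lrp1 and Gipc2 passed in both fits, with differences of 1.22 (adjusted p = 0.00317, and 0.0294 with the offset) and -1.40 (adjusted p = 0.0191, and 0.0351 with the offset). Col10a1 was too low to test in the later sampling.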

How the data were processed

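The authors deposited expected counts and TPM per gene for all 190 libraries; 0 columns were left unused. Per the submitters' processing notes, reads were processed with DRAGEN on build GRCm39; its version and the annotation: not given in the sources used here. Of the deposited expected counts, 2.86% were not whole and all were rounded. The deposited TPM, which the authors scaled by transcript length, were used only for levels between genes and for the overlap of groups that were apart in CPM.

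Genes were filtered with filterByExpr (minimum count 10, minimum total 15) over the libraries compared, scaled by TMM and tested, two-sided, by the robust quasi-likelihood test of edgeR 4.0.16 in R 4.3.3, with Benjamini-Hochberg adjustment over all genes tested. SE is the absolute log2 fold change divided by the square root of F. CPM use TMM factors over all 190 libraries. GC content came from transcripts of another build, matched by gene for 99.7% of genes; the offset is a smooth of each library's log ratio on GC (span 0.3). The script was tested on simulated counts. Depth limits genes under 1 CPM most. Alternatives were DESeq2 1.42.0, other scaling and filters, share covariates, wider fits, a replicate block and libraries left out; those on GC content, single shares and Gm10800 were added after seeing the data.

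Named genes are the 15 largest rises and 15 largest falls with a mean of at least 1 CPM, up to 4 of each list by smallest p, and those the text says were chosen after their values were seen. Ccr3, Epx, Prg2, Gp5, Pf4, Gp1bb, Itga2b, Vwf, S100a8, S100a9, Col1a1, Fkbp5 and Gm10800 were also chosen after their values were seen. The members and lists were chosen with earlier results of these data known.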

Additional observations from a re-analysis of the deposited data

Results flagged for a closer look

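In both groups of 10, 5 library measures and the CPM of each of the 73 named genes were checked for 1 library far from the other 9. For independent, normally distributed values, chance gives this in about 1 of 20 cases. Whether that rate holds for CPM of genes that share libraries was not tested. In all, 12 cases were found, 7.69% of those checked, and every value was the highest of its group. In day 5 libraries the values standing apart were 126.9 CPM of Cd74, 0.0726 CPM of Epx, 2.73 CPM of Gm10800, 1.19 CPM of Smpd3, 2.11 CPM of Tagln and 1.40 CPM of Zfp385a. In day 2 libraries they were 42.7 CPM of Cd72, 19.9 CPM of Ifit1, 1.74 CPM of Il6, 504 CPM of S100a8, 600.5 CPM of S100a9 and 15871 genes with at least 10 counts.

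For 19 named genes the cohort difference of the first sampling differed from that of the second by edgeR's interaction test, where 4.94% of all genes passed. Most named genes were chosen by their early difference, which is part of this test. A higher share among them was thus built in by the choice, and the values describe single genes. Of the platelet list, the early minus late difference on the log2 scale was -0.75 for Gp6, -0.85 for Clec1b and -0.89 for Ppbp. Pf4, Gp5 and Treml1, also called on day 5, were not among the 19. Of the genes chosen after their values were seen, Mmrn1 had -0.89, Rgs18 -1.17, Cavin2 -0.81 and Arhgap6 -0.77. The difference was also negative for Ccr3 (-1.75), Cyp2b10 (-1.01), Gipc2 (-1.40) and Gm10800 (-8.26). It was positive for Tnfrsf1a (1.11), Lrp1 (1.22), Sirpa (0.96), Slc29a3 (1.25), Itgax (0.63), Cd74 (1.44), Tnni2 (1.08) and Zfp385a (1.79). For Ccr3 and Cd74, whose early differences are given above, the larger part lay in the later sampling. The value of Gm10800 rests on the day 2 libraries in which it was high. With the GC offset, 2 of the 19 passed, Lrp1 and Gipc2, where 0.454% of all genes did.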

How the results depend on the processing

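The 948 calls between day 5 and day 2 became 615 without the filter on low counts, 447 with the GC offset, 341 without the libraries high in Gm10800 and 248 with both. They became 98 higher and 88 lower with the globin share as covariate, 91 with the mitochondrial rRNA share, 3 with both, and 17 in the fit over 90 libraries. Leaving out 1 library gave 428 to 1462. DESeq2 gave 1351, size factors of the RLE type 951, and leaving out globin, 7S and mitochondrial rRNA genes 966. Same-numbered libraries of the 2 early groups, which are different cohorts, did not deviate together (correlations from -0.21 to 0.38, 1 of 10 best matched by its own number). The numbers were not taken as pairs. With a replicate block 628 genes were called, and 286 with the GC offset as well. Early against late, correlations ran from -0.23 to 0.16 in group 2, where replicate 8 best matched its own number. In group 1 they ran from -0.14 to 0.27, where replicates 4 and 10 did. The labels do not say that a number follows the same mouse. Between the cohorts in the second sampling DESeq2 called 17 genes and edgeR 0 under every edgeR alternative run. The difference between samplings passed for 740 genes, and for 1159 with DESeq2, 12 with both shares, 206 with the globin share, 68 with the GC offset and 490 with the block. Outside the fits that left out 1 library, 595 single-gene values kept their direction and side of the threshold, 308 lost the call, 12 gained it and 7 turned. Ccr3 turned to 0.30 with both shares, 0.06 with the globin share, 0.09 with the mitochondrial share, 0.04 with the GC offset, 0.03 with it and without the libraries high in Gm10800, 0.06 with it and the block, and 0.03 without day 2 replicate 2, with a range of -0.19 to 0.03 over the fits that left out 1 library. S100a8 turned to 0.11 without day 2 replicate 7 (range over such fits -0.42 to 0.11) and 0.03 with the GC offset without the libraries high in Gm10800. The cause was not tested.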
